A study of Homo sapiens with 3 samples.

Results

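The 35 genes described here were MYC, its binding partner MAX and 33 genes that build ribosomes in the nucleolus. They comprised proteins of the small nucleolar ribonucleoproteins (snoRNPs), nucleolar organisers, assembly factors of both ribosomal subunits and components of RNA polymerase I. They were chosen by gene name from the 41749 gene names of the array, with earlier results of these data known. The rule itself names genes and uses no measured value, and each gene is read from its brightest usable probe. Gene expression was measured in HCT116, an established human colorectal cancer cell line, with 1-colour Agilent arrays of 60-base probes.

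There were 3 groups of 1 array each. NC was HCT116 given a scrambled negative control, and PRMT1-KD1 and PRMT1-KD2 (KD1 and KD2 below) were HCT116 in which PRMT1 was knocked down by RNA interference. All oligonucleotides were delivered with Lipofectamine 3000, so the control shared the transfection. The labels describe synthetic siRNAs against PRMT1, whereas the study's text also speaks of short hairpin RNAs, and which sequence gave KD1 and which gave KD2 is not given in the sources used here. The time from transfection to RNA extraction is likewise not given in them. With 1 array per group no replicate error, standard deviation or p-value exists for any group, and every difference below compares single arrays. KD1 minus NC and KD2 minus NC share the NC array, so a deviation of that array enters both, and their values are set side by side without being counted as independent.

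MYC is a transcription factor that, bound to MAX, occupies the DNA hexamer CACGTG (the E-box) in the promoters of many growth genes, among them a large share of the ribosome biogenesis genes. In the nucleolus RNA polymerase I transcribes a long precursor of ribosomal RNA, snoRNPs guide its methylation and pseudouridylation, and assembly factors cut, fold and package it into the 2 subunits. The programme is commonly raised in colorectal cancer. PRMT1 places asymmetric dimethyl groups on arginines, and the glycine- and arginine-rich stretches of FBL, NCL and GAR1 are among its known substrates. Protein methylation was not measured by the arrays.

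The siRNA sequences of the labels are shown because they define the perturbation, as 5′ to 3′ RNA of 26 and 19 bases:
PRMT1 siRNA-1: cugaaguccaggucgauggugaaguc
PRMT1 siRNA-2: uuguagucuuuguacugcc

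The E-box was searched in the RefSeq promoter windows of build GRCh38.p14, which run from 250 bases before to 50 bases after the gene start. The 6 letters CACGTG read the same on both strands, so a single search covers both. A window was given for 29 members. The motif was in 13 of them (44.8%), against 8.77% of all 27305 genes and 10.9% of the 15842 protein-coding genes in the same table. It was in 25 of 85 further ribosome biogenesis genes with a window (29.4%) and in 16 of 25 other MYC target genes (64%), so the members lay between these 2 lists. All 13 members held a copy within 50 bases of the start. Stretches of 30 bases, on the gene's strand with the E-box in capitals, are shown for 8 members whose values are described below:
DDX21, chr10:68956604-68956633, plus strand: ggccgggtgtccCACGTGgtccccggcgac
GAR1, chr4:109815781-109815810, plus strand: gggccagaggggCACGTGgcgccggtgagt
GNL3, chr3:52686026-52686055, plus strand: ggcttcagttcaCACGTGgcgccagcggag
FBL, chr19:39846356-39846385, minus strand: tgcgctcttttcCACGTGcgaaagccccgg
NOP2, chr12:6568242-6568271, minus strand: gctaggtccggattgCACGTGgagggccgc
PES1, chr22:30591880-30591909, minus strand: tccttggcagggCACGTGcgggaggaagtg
RRP9, chr3:51941892-51941921, minus strand: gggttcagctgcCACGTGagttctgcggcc
UTP20, chr12:101280083-101280112, plus strand: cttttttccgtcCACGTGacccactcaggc

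In DDX21, RRP9 and UTP20 the hexamer began before the gene start, at -31, -5 and -10 counted from a first transcribed base of 1. In the other 5 it began after it, at 7 in GNL3 and in FBL, 14 in PES1, 32 in GAR1 and 36 in NOP2. A match of letters is a description and was not tested for binding.

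Signals are given as log2 units above the 75th percentile of an array's non-control probes, so a value of 6 lies 6 doublings above that level, and a difference of 1 is a 2-fold difference. Levels of different probes are not compared, since probes differ in brightness. A gene was taken as past the threshold at 1.5-fold (0.58 log2 units), the fold used in the study's methods. PRMT1 itself read 6.03 on NC, 2.75 on KD1 and 1.48 on KD2. It stood at 10.3% of NC on KD1 and at 4.26% on KD2. The 3 arrays shared a slide and a scan. Of their probes 40.7% to 42.3% were well above background, and no non-control probe was saturated. The epithelial markers EPCAM, KRT8, KRT18, KRT19 and CDH1 and the colon factor CDX2 were above background on all arrays, whereas the brush border gene VIL1 was on none. CDH1, the adhesion protein E-cadherin, was higher than NC by 0.94 and 0.76, and KRT8 stood at -0.89 and -0.39. Of 9 markers of other cell types, CD3E, PECAM1 and COL3A1 were on no array, PTPRC was on KD2 alone, and CD14, VWF, COL1A1, DES and ALB were on all arrays at signals from -1.50 to 2.15. Past 1.5-fold of NC among them were COL1A1 in KD2 (0.62) and DES in KD1 (-0.69), and CD14 stood at 0.58 in KD2. Their part in the members' values was not tested.

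All 35 members were above background on every array, with signals from 0.57 to 9.51, so none rested on a floor value. As a yardstick for single genes, the robust standard deviation of KD1 minus KD2 was 0.33 over the 9729 genes that were above background on all arrays within the members' range of signal. It reflects 2 different knockdown samples and not replicates of 1 group. Over the same genes the robust standard deviation was wider against NC, at 0.46 for KD1 minus NC and 0.40 for KD2 minus NC.

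**Figure D1:**
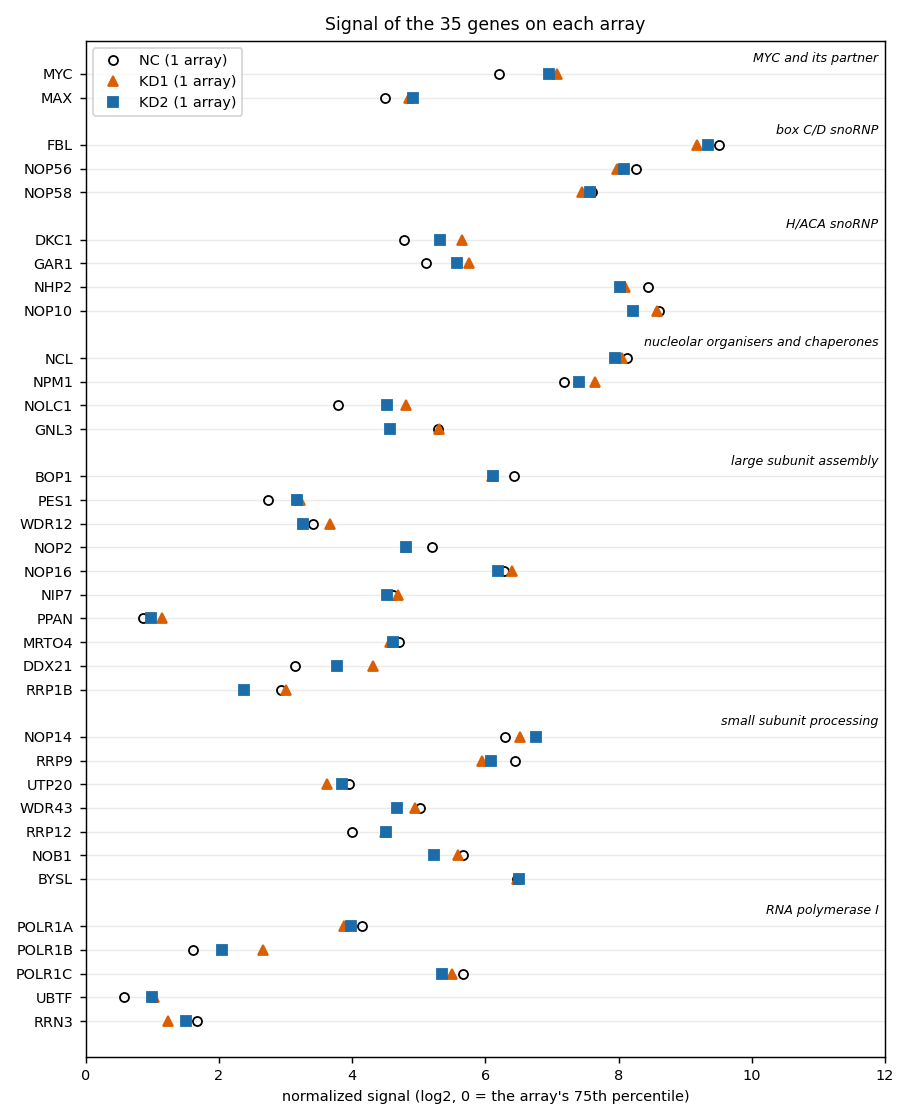
Normalized signal (x axis, log2, 0 at the array's 75th percentile) of each of the 35 genes (rows, grouped by role) on the NC, KD1 and KD2 arrays, with 1 point for each array and no error bars since each group has 1 array. MYC, DKC1, GAR1, NOLC1, DDX21 and POLR1B lay to the right of NC on both knockdown arrays, by 0.64 to 1.18 on KD1, whereas the 3 box C/D genes lay to the left on both, a direction that turned with spike-in scaling.

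The medians of the members lay close to those of all genes on the arrays. The median of KD1 minus NC was 0.02 over the 35 members and -0.07 over all 19231 genes measured in that comparison. For KD2 minus NC the medians were -0.09 and -0.05, the latter over 19421 genes. Single members were spread widely around these medians, from -0.51 (RRP9) to 1.18 (DDX21) in KD1 and from -0.71 (GNL3) to 0.75 (MYC) in KD2. With spike-in scaling every member lay above NC in KD1 (RRP9 lowest, at 0.13), and several members below NC turned upward in KD2. The downward directions given below are those of the scaling used here. Since the RNA came from bulk cultures, a change in RNA per cell and a change in the make-up of the culture cannot be told apart.

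In KD1, 6 of 35 members (17.1%) were higher than NC by more than 1.5-fold, namely DDX21, POLR1B, NOLC1, DKC1, MYC and GAR1. Of all genes measured, 12.4% were higher to that extent. No member was lower by more than 1.5-fold, where 14% of all genes were. In KD2, 3 of 35 members (8.57%) were higher, namely MYC, NOLC1 and DDX21, with 9.68% of all genes higher. GNL3 was the only member lower by that fold in KD2 (2.86%), against 10.6% of all genes. Among the 9729 genes of similar signal the background was 11.1% higher and 9.37% lower in KD1, and 6.82% higher and 9.55% lower in KD2. Before any adjustment for probe GC content, the upward shares of the members were thus near the background in both knockdowns. Nothing is read from them about the group.

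**Figure D2:**
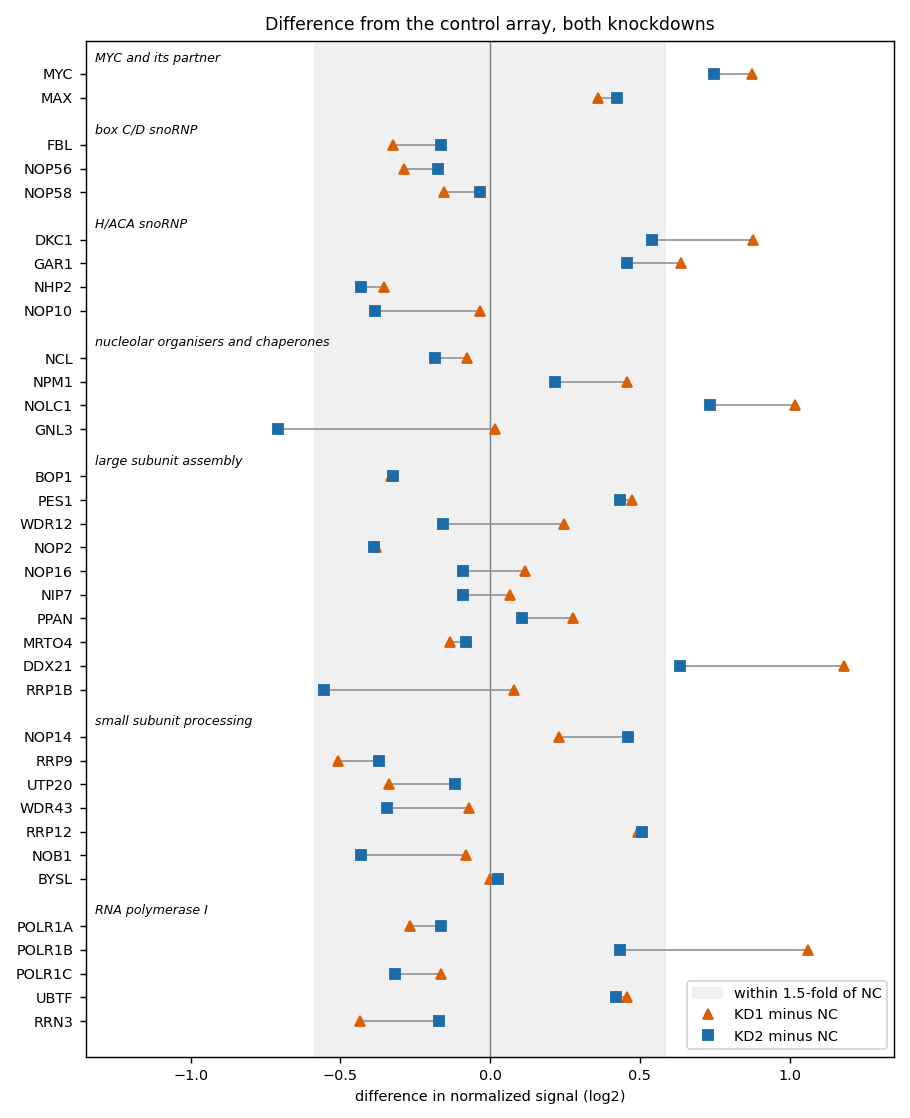
Difference in normalized signal from NC (x axis, log2) of each of the 35 genes (rows, grouped by role) for KD1 and KD2, 1 value each, with the grey band marking values within 1.5-fold of NC. Outside the band lay 6 genes of KD1, all to the right, and 4 genes of KD2, with MYC, NOLC1 and DDX21 to the right and GNL3 to the left.

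MYC was higher on both knockdown arrays. It read 6.20 on NC, 7.08 on KD1 and 6.95 on KD2, a difference of 0.87 in KD1 (1.83-fold) and 0.75 in KD2 (1.68-fold). The probe lies at chr8:128753268-128753327 of hg19 and was spotted 10 times on each array. The spots read 6.15 to 6.25 on NC (10 spots), 7.06 to 7.10 on KD1 (9 usable spots) and 6.93 to 7.03 on KD2 (10 spots). The standard deviation between spots was 0.016 to 0.039, which measures the reading of 1 RNA sample and not the spread between cultures. A second, dim MYC probe at chr8:128748076-128748135, annotated to another transcript record, went the other way. It read -1.48 on NC and -1.70 on KD2 and was not above background on KD1, so that KD1 minus NC was at most -1.52 and KD2 minus NC was -0.22. The 2 MYC probes thus disagreed in direction, and the values above are those of the bright one.

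MAX, the obligate partner of MYC, stayed within 1.5-fold. It read 4.49 on NC, 4.85 on KD1 and 4.91 on KD2, differences of 0.36 and 0.42. A second MAX probe, annotated to another transcript, gave -0.88 in KD1 and 0.07 in KD2. Another, near background, gave 0.42 and 0.90, so the probes of MAX did not share a direction in KD1.

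The core proteins of the box C/D snoRNPs, which guide 2′-O-methylation of ribosomal RNA, were past the threshold at none of 6 values. All 6 were lower than NC, a direction that turned with spike-in scaling for all 3 genes, and for FBL in KD2 and NOP58 also with quantile normalization, the percentile over detected probes or the adjustment for probe GC content. FBL (fibrillarin), the methyltransferase of these particles, read 9.51 on NC, 9.18 on KD1 and 9.34 on KD2. Its differences were -0.32 and -0.16. NOP56 gave -0.29 and -0.17, and its other probe gave 0.08 and 0.16. NOP58 gave -0.16 and -0.03. NOP56 and NOP58 form the scaffold that joins FBL to the guide RNA. The sizes of these differences were under the yardstick of 0.33. In KD1 12.4% of all genes were higher and 14% lower by more than 1.5-fold, and in KD2 9.68% and 10.6%. Nothing is read from these genes staying within that fold.

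The H/ACA snoRNP proteins, which carry out pseudouridylation and also belong to the telomerase particle, were divided. DKC1 (dyskerin), the pseudouridine synthase, read 4.77 on NC, 5.65 on KD1 and 5.31 on KD2. It was higher by 0.88 in KD1 (1.84-fold) and by 0.54 in KD2, the latter short of the threshold. GAR1, which contacts the catalytic subunit and carries the glycine- and arginine-rich stretches named above, read 5.11 on NC, 5.75 on KD1 and 5.57 on KD2. Its differences were 0.64 (1.55-fold) and 0.46. The 2 remaining core proteins lay on the other side of NC. NHP2, the RNA-binding core protein, read 8.45 on NC, 8.09 on KD1 and 8.02 on KD2, differences of -0.35 and -0.43. NOP10, the smallest core protein, gave -0.03 and -0.38. Subunits of a single particle thus lay on opposite sides of NC on both arrays, except that NHP2 and NOP10 turned upward in KD1 with spike-in scaling and NOP10 also with quantile, median, normexp and GC-adjusted processing. The order of the particle's genes by their differences does not depend on a factor that scales a whole array.

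Among the nucleolar organisers and chaperones, NOLC1 and GNL3 stood out in different ways. NOLC1 (Nopp140), which binds snoRNPs and RNA polymerase I, read 3.79 on NC, 4.80 on KD1 and 4.52 on KD2. It was higher by 1.02 in KD1 (2.02-fold) and by 0.73 in KD2 (1.66-fold). GNL3 (nucleostemin), a nucleolar GTPase of proliferating and stem cells, read 5.28 on NC, 5.30 on KD1 and 4.57 on KD2. It was at the level of NC in KD1 (0.02) and lower in KD2 (-0.71, 1.63-fold), so the arrays of the 2 knockdowns differed in this gene. NCL (nucleolin), an abundant RNA-binding protein of the nucleolus, gave -0.08 and -0.19. NPM1 (nucleophosmin), which shuttles between nucleolus and cytoplasm, gave 0.46 and 0.22 by its brightest usable probe and -0.07 and 0.07 by another. A brighter probe, left out for spots marked as outliers, put NPM1 at -0.51 in KD1 when those spots were kept, so its probes did not share a direction. NPM1 has near-identical processed pseudogenes whose transcripts a probe may not separate.

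In the large subunit group DDX21 had the largest difference of all members in KD1. This RNA helicase, which acts on both RNA polymerase I and RNA polymerase II genes, read 3.14 on NC, 4.32 on KD1 and 3.77 on KD2. The differences were 1.18 in KD1 (2.27-fold) and 0.63 in KD2 (1.55-fold). In the order from the highest difference DDX21 was gene 499 of 19231 in KD1, so many genes of the array differed by more. The 3 members of the PeBoW complex, needed to process the precursor of 28S ribosomal RNA, gave no common direction, except that all 3 were above NC in KD1 with spike-in scaling. PES1 read 2.74 on NC, 3.21 on KD1 and 3.17 on KD2, which is 0.47 and 0.43 above NC. BOP1 gave -0.33 on both (-0.01 and -0.08 after the adjustment for probe GC content and brightness), and WDR12 gave 0.25 and -0.16.

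The other large subunit factors stayed within the band of 1.5-fold. NOP2, a methyltransferase of 28S ribosomal RNA, read 5.19 on NC, 4.81 on KD1 and 4.80 on KD2, differences of -0.38 and -0.39. NOP16 gave 0.12 and -0.09, NIP7 0.07 and -0.09, PPAN 0.28 and 0.11, and MRTO4, which prepares the site of the ribosomal stalk, -0.13 and -0.08. RRP1B, a nucleolar partner of protein phosphatase 1, read 2.93 on NC, 3.01 on KD1 and 2.37 on KD2. It was near NC in KD1 (0.08) and stood at -0.55 in KD2, just short of the threshold.

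None of the 7 members of the small subunit group passed 1.5-fold in either knockdown before the adjustment for probe GC content. In KD1 12.4% of all genes were higher and 14% lower by that fold, and in KD2 9.68% and 10.6%. Nothing is read from this count about the group. RRP9, the U3 snoRNP protein, read 6.45 on NC, 5.94 on KD1 and 6.08 on KD2. Its difference of -0.51 was the lowest of all members in KD1, and in KD2 it stood at -0.37. RRP12, an export factor of both subunits, read 3.99 on NC, 4.49 on KD1 and 4.50 on KD2, differences of 0.49 and 0.51. After the adjustment for GC content and brightness RRP12 stood at 0.77 and 0.75, past the threshold. NOP14, part of the small subunit processome, gave 0.23 and 0.46, and its dimmer second probe gave -0.06 and 0.34. UTP20 gave -0.34 and -0.12, and WDR43 gave -0.07 and -0.35. NOB1, the endonuclease that makes the 3′ end of 18S ribosomal RNA, was spotted repeatedly like MYC. Its 7 or 8 usable spots had standard deviations of 0.030 to 0.056, and the differences were -0.08 and -0.43. BYSL (bystin) read 6.48 on the NC and KD1 arrays and 6.51 on KD2, differences of 0.00 and 0.03 (0.28 and 0.27 after the adjustment for GC content and brightness).

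For RNA polymerase I, POLR1B stood apart from the other components. POLR1B, the second largest subunit, read 1.61 on NC, 2.67 on KD1 and 2.04 on KD2. The differences were 1.06 in KD1 (2.09-fold) and 0.43 in KD2, and a dimmer second probe gave 0.44 and 0.23. POLR1A, the largest subunit, gave -0.27 and -0.16. POLR1C, which RNA polymerases I and III share, gave -0.17 and -0.32 by its brightest probe. Its other 2 probes gave 0.29 and -0.27, and -0.01 and 0.02, so the probes of POLR1C did not share a direction. POLR1A in both knockdowns and POLR1C in KD1 turned upward with spike-in scaling. UBTF, the architectural factor of active ribosomal DNA, read 0.57 on NC, 1.02 on KD1 and 0.99 on KD2, differences of 0.46 and 0.42. RRN3, which joins the polymerase to the promoter complex, gave -0.43 and -0.17 by its brightest probe. Its other 2 probes gave 1.12 and 0.44, and 0.01 and -0.02, so no direction can be given for RRN3, which also has expressed pseudogenes.

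Compared directly, without the NC array, KD1 was higher than KD2 by more than 1.5-fold in 3 members (8.57%) and lower in none. Of all 19544 genes measured, 8.94% were higher and 9.66% lower. The 3 members were GNL3 (0.72), RRP1B (0.64) and POLR1B (0.63). Among the 9729 genes of similar signal the shares were 7.5% and 3.63%. In DDX21 KD1 exceeded KD2 by 0.55, short of the threshold. Over the 35 members the median of KD1 minus KD2 was 0.11, against -0.01 over all genes measured and 0.06 over the 9729 genes of similar signal.

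Members with and without the promoter E-box overlapped in their differences. The 13 members with the hexamer had a median of -0.03 in KD1 and -0.12 in KD2, with 2 of them (DDX21 and GAR1) past the threshold upward in KD1 and 1 (DDX21) in KD2. The 16 members whose window lacked it had medians of 0.09 and -0.12, with 2 (DKC1 and POLR1B) past the threshold upward in KD1 and none in KD2. Of all genes measured, 12.4% were past it upward in KD1 and 9.68% in KD2. Nothing is read from these counts about the hexamer. GNL3, the member that was lower in KD2, held the hexamer. The windows of the 6 other members, MYC and NOLC1 among them, were not analysed here.

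Other genes of the pathway were placed beside the members from lists drawn up by function. Of 105 further ribosome biogenesis genes, all measured, 15 (14.3%) were higher and 4 (3.81%) lower than NC by more than 1.5-fold in KD1, where 12.4% and 14% of all genes were. In KD2 there were 4 (3.81%) in each direction, against 9.68% and 10.6% of all genes. The medians of the 105 genes were 0.10 in KD1 and -0.07 in KD2, against -0.07 and -0.05 over all genes measured. By subgroup, 7 of 42 further small subunit genes were higher in KD1 and 3 lower, with 2 higher and 3 lower in KD2. Of 43 large subunit genes 7 were higher in KD1 and none lower, with 2 and 1 in KD2. None of 10 further RNA polymerase I genes passed the threshold in either knockdown.

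Past 1.5-fold in the same direction on both arrays were 4 genes of these lists. WDR3, a small subunit processome protein, stood at 1.17 and 0.65. BMS1, the GTPase of that complex, stood at 0.79 and 0.74, and DDX24, an RNA helicase of the large subunit list, at 0.64 and 0.74. TBL3, another processome protein, was lower, at -0.72 and -0.81. The 80 measured cytosolic ribosomal protein genes, the products that the pathway assembles, had medians of -0.32 and -0.22. Below NC were 74 of them in KD1 and 70 in KD2, where 10675 of 19231 and 10550 of 19421 genes were. Both medians turn upward with spike-in scaling, which adds 0.64 and 0.29 to every gene. Past 1.5-fold were 1 (1.25%) upward and 2 (2.5%) downward in KD1, where 12.4% and 14% of all genes were. In KD2 there were 1 (1.25%) upward and 5 (6.25%) downward, against 9.68% and 10.6%.

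The remaining MYC-related lists are read against the same shares of all genes, 12.4% higher and 14% lower in KD1 and 9.68% and 10.6% in KD2. Of the MYC network (other MYC and MXD family members, their partners and regulators), 12 of 13 genes were measured. None was higher and 2 (16.7%) were lower in KD1, with 1 (8.33%) each way in KD2, and the medians were 0.14 and 0.05. Of other MYC target genes outside the ribosome, 3 of 26 measured (11.5%) were higher in KD1 and none lower. In KD2 2 of 27 (7.41%) were higher and 1 (3.7%) lower, and the medians were -0.02 and -0.19. Proliferation genes lay lower, with medians of -0.30 and -0.31 over 20 genes, of which the KD1 median turns upward with spike-in scaling. In that list 5 (25%) were past the threshold downward in KD1 and 6 (30%) in KD2, with 1 (5%) upward in KD1 and none in KD2. Among them were the replication licensing factor MCM5 (-1.33 and -1.11), the mitotic cyclin CCNB1 (-0.70 and -0.999), the proliferation antigen MKI67 (-0.98 and -0.70) and the mitotic kinase PLK1 (-0.82 and -0.79). By its bright probe, but not by its dim one, MYC was higher on the arrays on which these 4 genes were lower. The 4 were picked from the list for the largest mean differences past 1.5-fold in the same direction on both arrays. A link between MYC and these genes was not tested.

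**Figure D3:**
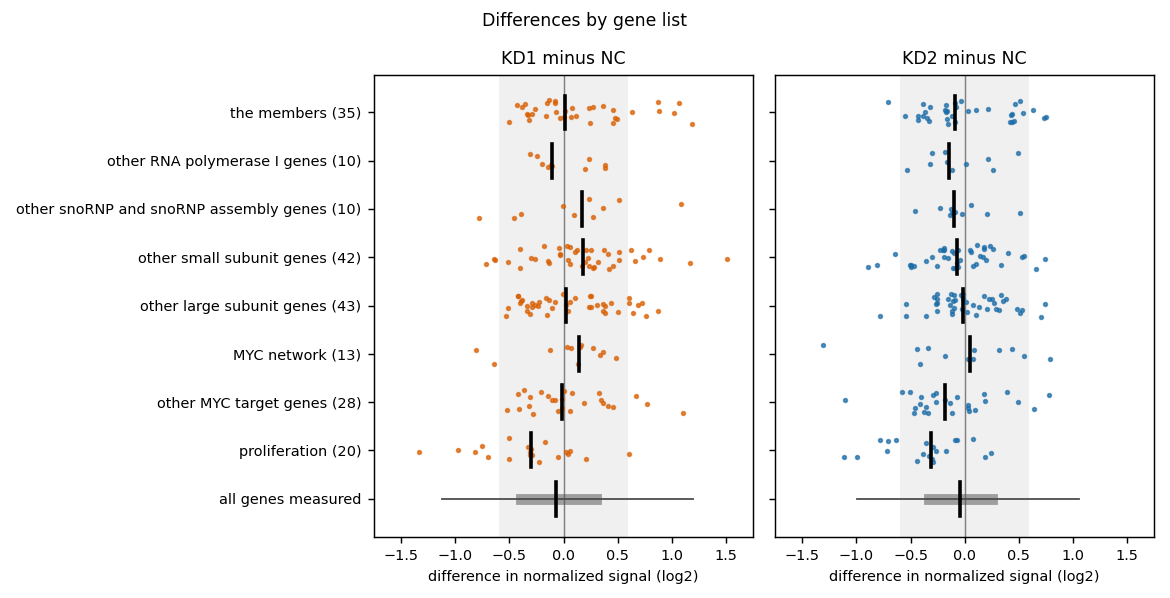
Differences from NC (x axis, log2) for KD1 (left) and KD2 (right), 1 point for each measured gene of a list (the number of genes in the list in brackets), with the median as a black bar and values within 1.5-fold of NC in the grey band. In the bottom row the thick bar holds the middle 50% and the thin line the middle 95% of all genes measured, and the members' medians of 0.02 and -0.09 lay near its medians of -0.07 and -0.05, while the proliferation medians were -0.30 and -0.31.

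The base composition of the probes moved with the differences, in KD1 above all. When the 17054 genes above background on all arrays were divided into 5 classes of rising probe GC content, the median of KD1 minus NC went from 0.20 in the class of lowest GC through 0.07, -0.04 and -0.15 to -0.33 in the highest. The corresponding medians of KD2 minus NC were 0.06, -0.01, -0.07, -0.10 and -0.17. The share of genes higher by more than 1.5-fold in KD1 was 23.7% in the lowest class and 1.96% in the highest. The 6 members past the threshold in KD1 had probes of 35% to 43.3% GC with a median of 40%, and the other 29 members had probes of 28.3% to 55% with a median of 43.3%.

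After each difference was set against the median of genes of similar GC content and brightness, those 6 members remained past 1.5-fold in KD1. Their adjusted differences were 1.06 for DDX21, 0.99 for NOLC1, 0.87 for MYC, 0.86 for DKC1, 0.84 for POLR1B and 0.63 for GAR1. PES1 and RRP12, read by probes of 55% and 50% GC, stood at 0.82 and 0.77 in KD1 and at 0.70 and 0.75 in KD2 on this scale, past the threshold they had not passed before. RRP9 moved to -0.07 in both knockdowns. GNL3 stayed at -0.72 in KD2. The members past the threshold upward thus numbered 8 of 35 in KD1 and 6 of 35 in KD2 after adjustment, where 10.9% and 9.34% of all genes were. Before adjustment they were 6 (17.1%) and 3 (8.57%), against 12.4% and 9.68%. The adjustment was chosen after seeing the data, and nothing is read from these counts about the group.

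**Figure D4:**
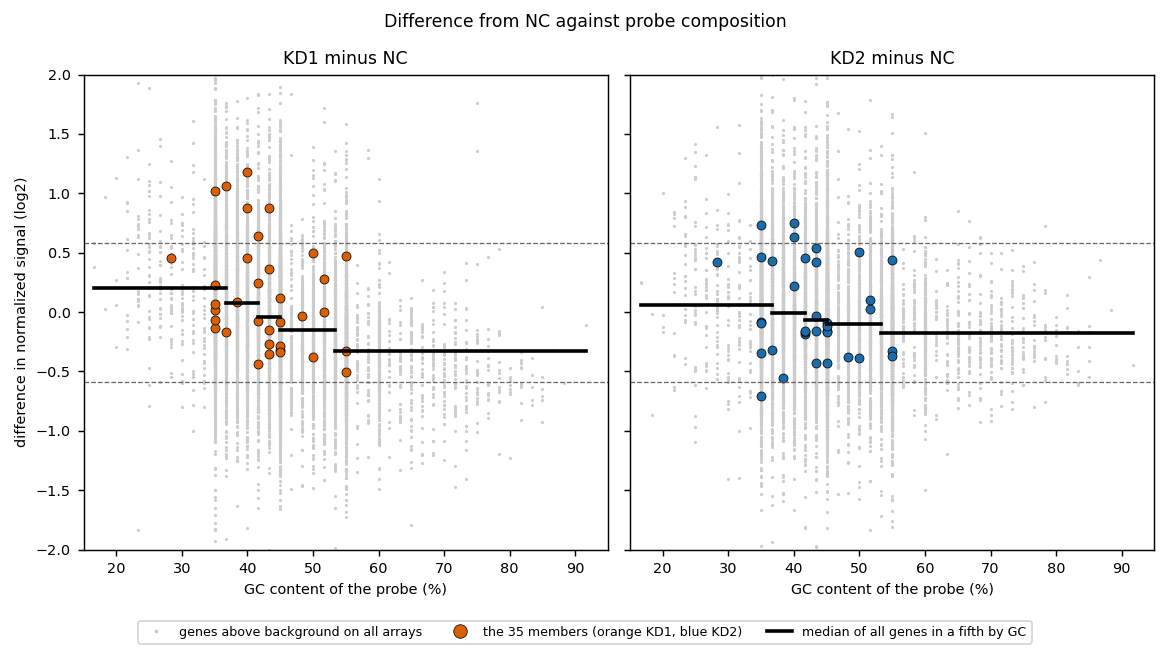
Difference from NC (y axis, log2) against the GC content of the probe (x axis, percent) for KD1 (left) and KD2 (right), with the 35 members in colour, genes above background on all arrays in grey (18 and 16 of 17054 lie beyond the y axis), black bars for the median of all genes in each of 5 GC classes and dashed lines at 1.5-fold. The bars descend from 0.20 to -0.33 in KD1 and from 0.06 to -0.17 in KD2, and the members past the threshold upward in KD1 lie between 35% and 43.3% GC.

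The scaling between arrays set the level of all genes and with it the count of members past the threshold. Compared with the scaling used here, the 8 E1A spike-in probes put the median of all genes 0.64 higher in KD1 and 0.29 in KD2. Past 1.5-fold upward were then 20 members in KD1 and 11 in KD2, where 48.5% and 22.4% of all genes were. Centred on the array medians, the median of all genes moved by 0.11 and -0.15. The median of the members less that of all genes was 0.08 in KD1 and -0.04 in KD2, a distance that a single factor for an array cannot change. Alternatives that can change it left KD1 positive, at 0.04 to 0.25. In KD2 it turned to 0.05 with quantile normalization and with no filter on dim probes, and to 0.04 with means in place of medians.

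**Figure D5:**
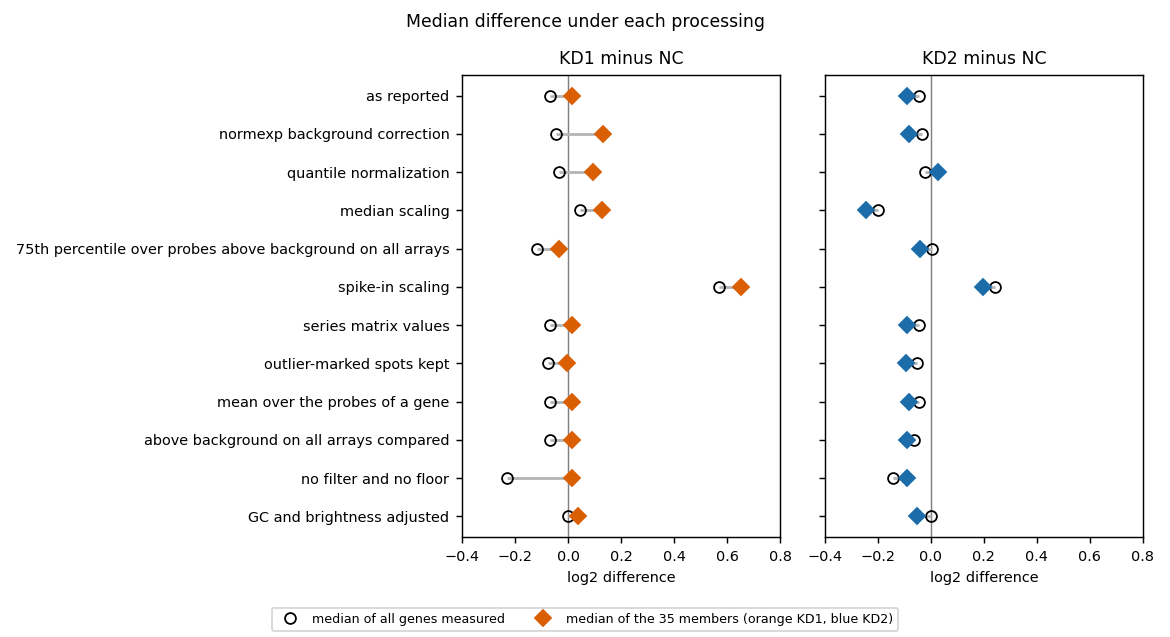
Median difference from NC (x axis, log2) of all genes measured (open circles) and of the 35 members (diamonds) for KD1 (left) and KD2 (right) as reported and under each of 11 alternatives (rows). Both medians moved together under spike-in scaling, to 0.65 for the members in KD1 and 0.20 in KD2, while the distance between them as reported was 0.08 and -0.04.

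DKC1, GAR1, NOLC1, DDX21 and POLR1B were past 1.5-fold upward in KD1 under all 11 alternatives. MYC was so under 10, the exception being the mean over its 2 probes (-0.88). That mean takes in the dim probe's KD1 reading of -4.11, which was not above background and was averaged as read. In KD2, MYC, NOLC1 and DDX21 were past it upward, and GNL3 downward, under 10 of 11 alternatives each. The exceptions were the mean over probes for MYC (0.26), centring on the median for NOLC1 (0.58) and DDX21 (0.48), and spike-in scaling for GNL3 (-0.42). In KD1 minus KD2, GNL3 was past the threshold under all 11 alternatives, RRP1B under 8 and POLR1B under 7. Quantile normalization, the percentile over detected probes and the GC adjustment each ended both of the latter calls, and the mean over probes ended that of POLR1B.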

How the data were processed

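The authors deposited, per the file headers, the scanner output of Agilent Feature Extraction 10.7.1.1 for each array. Its processed intensity was background-corrected on the array and not scaled between arrays, and its probe positions refer to hg19. The deposited series matrix held the mean processed intensity of each probe. It matched these values within 0.001 log2 units for 58021 to 58090 of 58201 probes, with medians of 7.91 (NC), 9.74 (KD1) and 9.43 (KD2), so no scale, centring or direction stayed unknown.

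Control spots and spots marked as outliers (67, 213 and 87) were left out, which removed 130 probes. Usable spots of a probe were averaged as log2 intensity, less the array's 75th percentile of all non-control probes. The 1505 probes without a gene name were not counted. A gene was its brightest probe and was measured in a comparison when well above background on at least 1 array compared. A dim value was raised to the lowest signal above background. All 35 members matched a RefSeq symbol of GRCh38.p14. With 1 array per group no test was made.

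The genes named were all members, PRMT1 and, from each other list, up to 4 genes past 1.5-fold in the same direction in both knockdowns. Other genes are named as markers. The members and lists were chosen with earlier results of these data known. The adjustment for GC content (10 classes) and brightness (5 classes) was chosen after seeing the data. The normexp alternative (offset 50) used limma 3.58.1 in R 4.3.3, and the rest Python 3.11.15 with numpy 2.4.6 and pandas 2.3.3. The scripts' arithmetic was tested on simulated data. The part of the transcript that each probe covers was not determined here. The SMARCA4 knockdowns and any further control array of the study were not analysed here.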

Additional observations from a re-analysis of the deposited data

How the results depend on the processing

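The number of arrays, 1 for each group, limits all values, and no paired analysis was possible because each group has 1 array. Signals of all members were above background on every array. The median of the 35 members, 0.02 in KD1 minus NC, was 0.14 as a mean, 0.13 with normexp background correction, 0.13 with median scaling and 0.65 with spike-in scaling. The median of -0.09 in KD2 minus NC was 0.013 as a mean, 0.027 with quantile normalization, -0.24 with median scaling and 0.20 with spike-in scaling. That of KD1 minus KD2 (0.11) was 0.37 with median scaling and 0.46 with spike-in scaling. The members' median less that of all genes in KD1 (0.08) was 0.25 with no filter on dim probes. Members higher in KD1 (6) numbered 3 at a fold of 2 and 20 with spike-in scaling, where 48.5% of all genes were higher by 1.5-fold. The share of all genes past a fold of 2 is not given here, so nothing is read from the counts at that fold. Members higher in KD2 (3) numbered 0 at a fold of 2, 5 with quantile normalization, 1 with median scaling, 11 with spike-in scaling and 6 after the adjustment for GC and brightness. Of all genes, 10.2% were higher with quantile normalization, 6.05% with median scaling, 22.4% with spike-in scaling and 9.34% after the adjustment. Members lower in KD2 (1) numbered 0 at a fold of 2, 3 with median scaling and 0 with spike-in scaling. The shares of all genes lower in KD2 were 18.1% with median scaling and 3.64% with spike-in scaling. Members higher in KD1 than in KD2 (3) numbered 0 at a fold of 2, 8 with median scaling and 11 with spike-in scaling. They numbered 1 each with quantile normalization, the percentile over detected probes and the GC adjustment. Among all genes, 21.2% were higher with median scaling and 27.1% with spike-in scaling. The shares were 8.9% with quantile normalization, 6.11% with the percentile over detected probes and 6.44% with the GC adjustment. Members lower in KD1 than in KD2 (0) numbered 1 with outlier-marked spots kept, where 9.77% of all genes were lower. It is NPM1 (-0.63, and -0.51 against NC), read by a probe otherwise left out. With the mean over probes they numbered 2, MYC and RRP12, where 9.22% of all genes were lower. Members lower in KD1 than in NC (0) numbered 1 with the mean over probes, where 12.8% of all genes were lower. It is MYC, reversed to -0.88. These means take in the second MYC probe, not above background on KD1, and a second RRP12 probe above background on no array. The cause of these shifts was not tested, except that a scaling factor moves all genes of an array alike. Of 144 summary values over all alternatives, 114 stayed within their tolerance and 30 moved.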
